A study of Arabidopsis thaliana with 35 samples.

Results

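The regions described here are 420 long domains of H3K27me3 in seedlings of Arabidopsis thaliana that had not been exposed to cold. A region was taken from the peaks of the first H3K27me3 library without cold (NV replicate 1) on chromosomes 1 to 5. It had to be at least 4000 bp long and to overlap a peak of the second library (NV replicate 2) by at least 1 bp. These 420 were 6.04% of the 6954 peaks of that library and held 20.1% of the base pairs it marked, 2.43 Mb in all. The domains were thus chosen by their H3K27me3 peaks in the NV libraries, and the values of those libraries are given as a description.

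H3K27me3, the trimethylation of lysine 27 of histone H3, is laid down by Polycomb repressive complex 2 and marks genes that are kept silent in a given tissue or at a given stage. In Arabidopsis it lies mostly over single genes, many of them regulators of flower, meristem and seed development. H3K4me3 lies over the starts of transcribed genes and H3K36me3 over their bodies, and both are usually scarce where H3K27me3 is dense. Vernalization, the promotion of flowering by prolonged cold, is a classical case of silencing through this mark.

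All plants were of the Col-0 ecotype with a functional FRI allele, which makes flowering depend on cold, and the standard growth conditions were 22 °C and days of 16 h light and 8 h dark. Whole seedlings were collected in 3 states: never cooled (NV), at the end of 40 d in the cold, and 10 d after the return from such a cold period (T10). Chromatin immunoprecipitation with sequencing (ChIP-seq) of each of the 3 marks had 2 libraries per group, and RNA had 2 libraries per group, also at 1 h, 1 d, 10 d and 20 d in the cold. The labels do not say that replicates came from separate cultures, so p-values measure only the spread between these samples. The NV plants are the single group without cold, so that age and cold cannot be told apart in a difference from NV.

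The H3K27me3 libraries held 6.01 and 3.42 M filtered tags in NV (M for mega), 15.6 and 3.86 M after 40 d and 12.1 and 6.60 M at T10, replicate 1 first. Those of H3K4me3 and H3K36me3 held 8.49 to 37.0 M. Each library of a time point was called against the same input library, per the file headers. The headers also show that replicates 1 and 2 were processed under different names, with trimmed reads in replicate 2, so values are given for each replicate number. The labelled mark was checked at a few genes: the reference genes ACT2, UBQ10, PP2AA3 and GAPC1 were covered for 0% of their bodies in all 6 H3K27me3 libraries. The bodies of the silenced developmental genes AG, STM, WUS and LEC2 were covered for 48.7% to 100% in each of the 6.

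The domains ran from 4000 to 22281 bp with a median of 5177 bp. There were 232 of at least 5000 bp and 16 of at least 10000 bp. Chromosomes 1 to 5 held 122, 50, 81, 61 and 106 of them. Just inside the length limit lay peaks of 4000, 4018 and 4020 bp, the first at chr3:6318614-6322613 (TAIR10, the build of the files). Just outside lay peaks of 3999, 3995 and 3995 bp, the first at chr5:20911977-20915975. Of 422 peaks that met the length limit, 2 had no overlap in replicate 2, at chr1:23184824-23188911 and chr3:21806025-21810033. For comparison, 4171 shorter peaks of the same library that also overlapped a replicate 2 peak covered 7.25 Mb with a median length of 1564 bp.

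Most domains spanned few genes. Protein-coding genes were touched once in 177 domains, 2 times in 151 and at least 3 times in 64, with at most 6 in 1 domain, and 28 touched none. Among the 10 longest, chr5:5616537-5631134 (14598 bp) held the protein-coding genes AT5G17080, AT5G17090, AT5G17100, AT5G17110 and AT5G17120. The domain chr1:8355101-8368732 (13632 bp) held AT1G23570, AT1G23580, AT1G23590, AT1G23600, AT1G23610 and AT1G23640. At chr1:25975141-25986686 (11546 bp) the domain held AP1, which gives floral meristems their identity, with 3 more protein-coding genes. The domain chr3:9873460-9885397 (11938 bp) held 4 members of 1 microRNA family, MIR169k, MIR169l, MIR169m and MIR169n, beside 1 protein-coding gene, and chr1:24907734-24918945 (11212 bp) held MIR157a. The domain chr3:7364009-7376754 (12746 bp) held 5 pseudogenes. The remaining 4 of the 10 longest stood apart from the others in their chromatin and are described next.

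**Figure D1:**
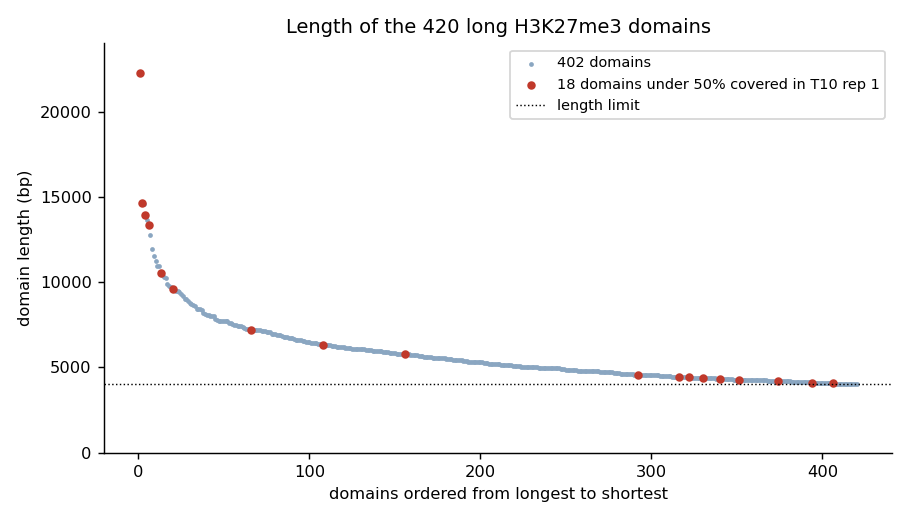
Length in bp of each of the 420 domains, ordered from longest to shortest, with the length limit as a dotted line. Red points are the 18 domains that were covered for under 50% in T10 replicate 1; 4 of them are among the 10 longest, including the longest at 22281 bp.

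A group of 18 domains, picked out after their values were seen because H3K27me3 peaks covered under 50% of each in T10 replicate 1, did not behave like the rest. They measured 0.142 Mb together, and chromosomes 1 to 5 held 1, 2, 3, 4 and 8 of them. Of these domains 13 held no annotated gene at all and 2 touched genes of ribosomal RNA, at chr2:1194-10803 and chr3:14191757-14206380. The longest was chr4:3965718-3987998, with chr4:3998155-4012065 close by, and 8 lay between 11.2 and 12.9 Mb on chromosome 5. As background, these stretches of the 5 chromosomes are known to hold or to flank the centromeric repeats, and the tip of chromosome 2 a ribosomal RNA array. The repeat content of the 18 and the mapping of reads within them were not measured here.

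In replicate 1, H3K27me3 peaks covered 100% of the base pairs of the 18 in NV, 78.3% after 40 d and 1.45% at T10. In replicate 2 they covered 100%, 100% and 91.1%. The replicate 1 values in NV and at T10 follow from how the domains were chosen and the 18 picked. Replicate 2 coverage was complete in NV and after 40 d. In T10 replicate 2, 12 of the 18 were covered for at least 95% and 3 for under 50%. The enrichment was just as uneven: the median of the strongest peak in a domain, as the authors' fold over local background, was 3.15 in NV replicate 1 and 8.84 in NV replicate 2. In 40 d replicate 1 it was 1.42, at the 1.44 percentile of that library's peaks, while in 40 d replicate 2 it was 8.90, at the 99.3 percentile. At T10, 15 of the 18 held no peak in replicate 1. The median fold in T10 replicate 2 was 3.25, at the 63.1 percentile.

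The same 18 were more widely covered by H3K36me3 peaks than the others in each library. An H3K36me3 peak was present in 11, 13 and 13 of the 18 in replicate 1 (NV, 40 d, T10) and in 4, 6 and 2 in replicate 2, and in 11 to 15 of the 402 others per library. The peaks covered 52.9% of their base pairs in NV replicate 1 and 18.6% in replicate 2. After 40 d the values were 58.7% and 20.6%, and at T10 they were 76.6% and 4.24%. H3K4me3 peaks covered 16.1% and 17.4% in NV and 14.9% and 20.4% after 40 d, in 3 to 5 of the 18, and none at T10 in either replicate. Of the 402 others, 86 to 155 held an H3K4me3 peak. The label of a Polycomb domain is therefore met by these 18 in some libraries and not in others, and values below are given with and without them.

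**Figure D2:**
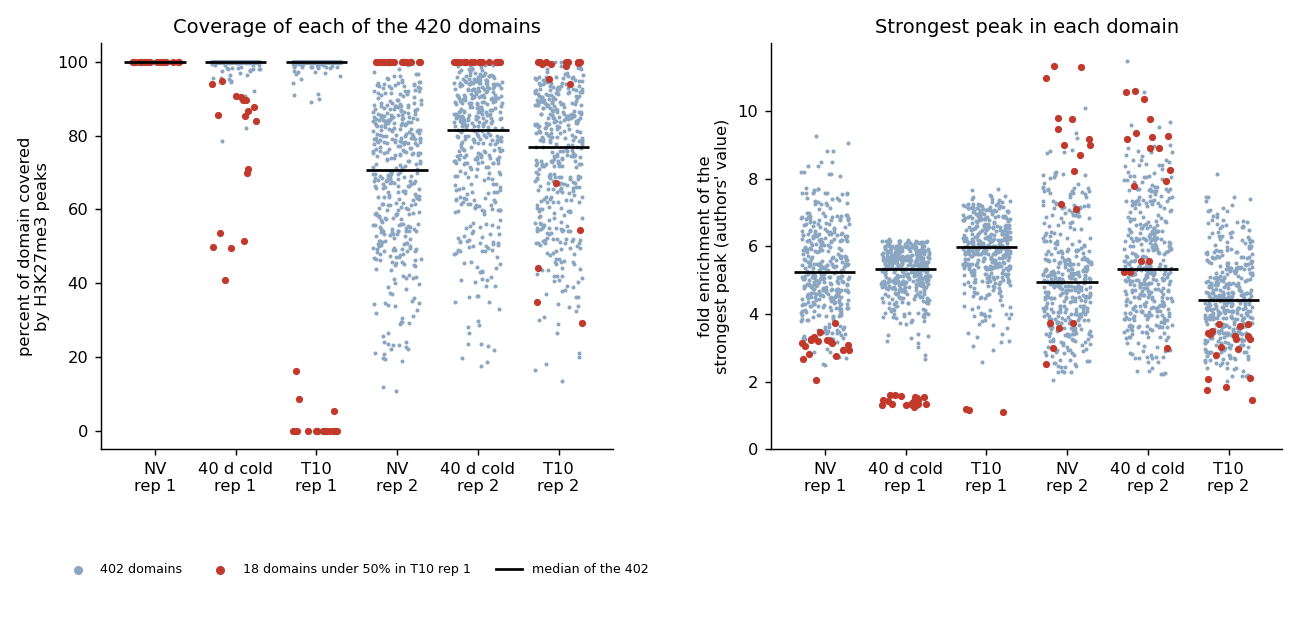
Each point is 1 of the 420 domains in 1 of the 6 H3K27me3 libraries; the left panel gives the percent of the domain covered by peaks and the right panel the authors' fold enrichment of its strongest peak, with no point where a domain held no peak. The 18 red domains were picked for their low coverage in T10 replicate 1, where they have 16.2% or less. The medians of the 402 others (black lines) stay at 100% in replicate 1.

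In the remaining 402 domains, peaks of replicate 1 covered 99.7% of the base pairs after 40 d, and those of replicate 2 covered 68.2%, 76.6% and 73.5% in NV, after 40 d and at T10. The values of replicate 1 in NV (100%) and at T10 (99.8%) follow in part from how the domains were chosen and the 18 set apart. Over all 420, every domain held a peak after 40 d in both replicates and at T10 in replicate 2, and 15 held none in T10 replicate 1. In replicate 2, 76, 42 and 49 of the 402 were covered for under 50% in NV, after 40 d and at T10. After 40 d, where neither choice used the values, the replicates lay over 20 points apart. That was wider than any difference between groups within replicate 2. The gaps between replicates in NV and at T10 follow in part from the choices. The gap after 40 d is not free of them either, since the domains are peaks of a replicate 1 library. Differences between replicates in NV and after 40 d correlated over the 420 domains (r 0.840). All of these gaps are a description.

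The domains also differed in shape between the replicates. After 40 d, 355 of the 402 lay inside a single peak of replicate 1, and at T10 352 did. In replicate 2 only 3, 5 and 4 did so in NV, after 40 d and at T10, and 258, 241 and 245 were split over at least 2 peaks. The longest peak in a domain had a median length of 6828 bp in 40 d replicate 1 and 3173 bp in 40 d replicate 2. The deepest libraries had the most long peaks, though the order was not strict below them. Libraries with 15.6 and 12.1 M tags had 1001 and 916 peaks of at least 4000 bp. Those with 3.42, 3.86, 6.01 (NV replicate 1) and 6.60 M had 134, 235, 422 and 169. Replicate 1 had more of them than replicate 2 in each group. The part of depth in these lengths was not tested.

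Within each library, the domains stayed among the stronger peaks. For the 402, the median of the strongest peak in a domain lay at the 88.2 percentile of all peaks of its library in NV replicate 1 and at the 83.3 percentile in replicate 2. The percentiles were 90.8 and 86.2 after 40 d, and 90.4 and 86.2 at T10. The median folds themselves were 5.24 and 4.93 in NV, 5.32 and 5.31 after 40 d, and 5.97 and 4.41 at T10. A longer stretch offers more places for a strong peak, so that these ranks are a description of the domains.

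Over all 420, the coverage was 98.4% and 77.9% after 40 d (88.2% ± 14.5, SD, n = 2) and 94.0% and 74.5% at T10 (84.3% ± 13.8, SD, n = 2). The difference T10 minus 40 d, −3.92 points, did not differ beyond the spread of the libraries (exact two-sided permutation test, p = 0.667). With 2 libraries against 2 the smallest p possible is 0.333. Within replicate 1 the difference was −4.41 points and within replicate 2 −3.43 points. Without the 18 it was 0.0923 points in replicate 1 and −3.09 points in replicate 2.

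Replicate 2, whose coverage was not complete by construction, shows how single domains varied. From NV to 40 d, 330 of the 402 domains were covered more and 68 less, with a median difference of 6.38 points. From NV to T10, 273 were covered more and 127 less, with a median of 3.48 points. From 40 d to T10 coverage was higher in 139 domains and lower in 261, with a median of −2.20 points. All peaks of replicate 2 covered 8.21 Mb in NV, 10.3 Mb after 40 d and 9.27 Mb at T10, so that the domains followed the order of the whole libraries.

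H3K4me3 covered a small part of the long domains. Its peaks covered 8.37% and 4.11% of their base pairs in NV, 8.47% and 4.69% after 40 d, and 7.63% and 5.13% at T10, replicate 1 first. The shorter domains had 15.7% and 9.64% in NV, 15.3% and 9.71% after 40 d, and 16.3% and 12.8% at T10. Coverage of the long domains was lower in 6 of 6 libraries, on average by −6.85 points (exact two-sided sign-flip test over libraries, p = 0.0312, the smallest that 6 libraries allow). Adjusted over the 2 marks compared in this way by the Benjamini-Hochberg method, the exact test gave 0.0625 and so did not pass 0.05. The 6 libraries measured the same domains, so p-values of this test do not measure the spread between domains. Without the 18 the mean difference was −7.16 points, again lower in 6 of 6 libraries. Presence of a peak went the other way, with a higher share of long than of shorter domains in each library. A peak was held by 158 and 89 of the 420 in NV, 153 and 103 after 40 d and 155 and 125 at T10. Of the 4171 shorter domains it was 1303 and 871, 1260 and 880, and 1343 and 1114. The 2 sets differ in length by definition, and its part in the covered percent was not tested.

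H3K36me3, in contrast to H3K4me3, depended on the 18 domains. Its peaks covered 3.47% and 1.41% of all long domains in NV, 3.75% and 1.59% after 40 d, and 4.83% and 0.659% at T10. The shorter domains had between 0.776% and 1.17%. The long domains were higher in 5 of 6 libraries, by 1.66 points on average (exact sign-flip test, p = 0.0625, adjusted over the 2 marks 0.0625). Without the 18, coverage was 0.327% to 0.436% and the mean difference turned to −0.579 points, lower in 6 of 6 libraries. The 18 were trimmed from the long domains only, after their values were seen, so no test is given for this value.

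**Figure D3:**
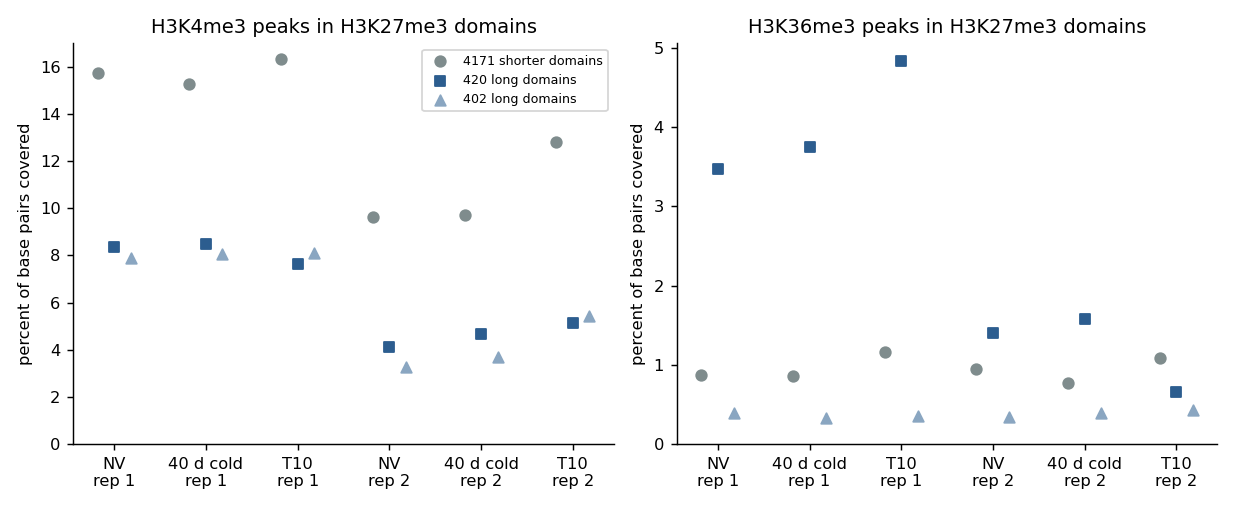
Percent of base pairs covered by H3K4me3 peaks (left) and H3K36me3 peaks (right) in each of the 6 libraries of a mark, for the shorter domains (circles), all long domains (squares) and the 402 long domains (triangles). H3K4me3 coverage of the long domains lies below that of the shorter ones in each library, and H3K36me3 coverage changes sides when the 18 domains are left out.

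Neither mark differed between the groups beyond the spread of its libraries. For H3K4me3 the differences were 0.34 points from NV to 40 d, 0.14 from NV to T10 and −0.20 from 40 d to T10. For H3K36me3 they were 0.23, 0.31 and 0.08 points. Without the 18, and with no test, those of H3K4me3 were 0.30, 1.19 and 0.89 points. The 1.19 from NV to T10 was 0.21 within replicate 1 and 2.17 within replicate 2. Those of H3K36me3 were −0.0017, 0.033 and 0.034 points. The exact permutation tests gave p of 0.667 or 1 for each, and 1 for all after adjustment over 7 such tests. Among the 402 domains, an H3K4me3 peak was present in 30.1% to 43.8% of the 146 that held a gene listed in the RNA table and in 16.4% to 36.3% of the 256 others. The share was higher for the former in 6 of 6 libraries.

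A gene was counted as inside where a long domain covered at least 50% of its body. This gave 870 genes, of which 649 were protein-coding (461 of them wholly inside), 105 were long noncoding RNAs, 57 were pseudogenes and 20 were microRNA genes. The protein-coding genes lay in 384 of the domains. The microRNA genes included MIR156f and MIR157a, whose products act on SPL factors in the change from juvenile to adult growth, MIR172d, which acts on AP2-like floral repressors, MIR319a, which acts on TCP factors, MIR160a, which acts on auxin response factors, and MIR399d, MIR399e and MIR399f, of the phosphate starvation response.

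Regulators of transcription were common inside. Of 598 genes whose name or synonym places them in 1 of 9 transcription factor families, 43 (7.19%) were inside, against 2.37% of all 27432 protein-coding genes. They made up 6.63% of the protein-coding genes inside. In the shorter domains, however, the share was 5.67% (172 of 3033), against 2.18% of all protein-coding genes; the difference between long and shorter domains was not tested. The YABBY genes had 3 of 4 members found by name inside, TCP 3 of 22, homeobox genes 8 of 78, MADS 8 of 104, NAC 8 of 104 and MYB 9 of 139. Members of a family that do not carry its name are missed by this match. The TCP members were TCP1, TCP12 and BRC1, the last 2 of which restrain shoot branching. Among the NAC members were VND1 and VND7, which drive the formation of xylem vessels, and FEZ, which acts in root cap stem cells. WRKY genes had 3 of 72 inside, and bHLH genes 1 of 31, and no ERF gene (0 of 44) was inside. Cytochrome P450 genes had 12 of 250 inside and receptor-like kinases and proteins 1 of 144.

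Of 84 genes in lists of developmental and control genes, 18 lay inside, each in a domain of its own. The floral identity genes inside were AG, which specifies stamens and carpels, AP1 and its close relative CAL, and SEP3, a partner of the other floral MADS factors. The other 10 listed floral identity genes, AP3, PI, LFY and FUL among them, were not inside. H3K27me3 peaks still covered 68.9% to 100% of their bodies in NV replicate 1. Of the flowering time list, AGL24, a MADS gene that promotes flowering, and TFL1, which keeps the shoot tip from becoming a flower, were inside. FLC, the floral repressor silenced in vernalization, was not: its body was covered for 0% in both NV libraries. Of the meristem and boundary list, the class I KNOX genes STM, KNAT1, KNAT2 and KNAT6, which keep cells undifferentiated, the homeobox gene WOX1 of leaf blade outgrowth and the organ boundary gene CUC2 were inside. The YABBY genes FIL (AFO in the gene table), YAB2 and YAB3, which mark the lower side of leaves, were inside too. The rest of the leaf polarity list, YAB5, CRC, INO and KAN1, was not inside. The last 3 of the 18 genes inside were MRN1 (marneral synthase), THAA1 (AT5G47980, an acyltransferase of the thalianol cluster) and YUC1, which acts in auxin synthesis. None of the listed seed program, cold response, Polycomb complex or reference genes was inside. In NV replicate 1, H3K27me3 peaks nonetheless covered 34.8% to 98.6% of the bodies of the seed program genes. They covered 61.3% of COR15A and 88.5% of GOLS3. The other cold response genes and the Polycomb complex and reference genes were covered for 0%.

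All 18 of these domains, none of which is among the 18 that stood apart, kept the mark. Their coverage was 99.6% to 100% in 40 d replicate 1 and 100% in T10 replicate 1. In replicate 2 it ran from 19.7% to 87.7% in NV, with a median of 66.1%. It ran from 43.1% to 97.2% after 40 d (median 68.1%) and from 36.2% to 95.6% at T10 (median 62.8%). The domain of KNAT1, chr4:5147009-5151306, was covered for 87.7%, 89.6% and 90.1% in the 3 groups of replicate 2, and that of CUC2, chr5:21899450-21904480, for 85.4%, 92.6% and 87.0%. Coverage of these 2 varied little, whereas that of the domain of TFL1, chr5:1021798-1027397, went from 19.7% to 44.3% and 58.5%.

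Their H3K4me3 differed from gene to gene. No H3K4me3 peak touched the domains of AG (chr4:10382453-10389159), AP1, SEP3 (chr1:8592215-8598126), TFL1, STM (chr1:23058755-23064323), YAB2 (chr1:2675946-2680722), MRN1 (chr5:17052878-17059978) or YUC1 (chr4:15701138-15705490) in any library. In contrast, H3K4me3 covered 21.3% to 27.7% of the domain of KNAT1 and 26.1% to 30.5% of that of KNAT6 (chr1:8299478-8304522). It covered 14.1% to 17.6% of the domain of WOX1 (chr3:6159375-6165104), 17.9% to 23.6% of that of YAB3 (chr4:72739-78946) and 20.8% to 29.3% of that of THAA1 (chr5:19428827-19432983). That of FIL was covered for 11.1% to 13.7%. The domains of KNAT2 and CUC2 held none in NV replicate 2, and 18.5% to 23.7% and 12.2% to 28.5% in the 5 other libraries. Those of CAL and AGL24 stayed at 1.77% or less, with none for CAL in replicate 2 of NV and T10. Of these 18 domains, H3K36me3 peaks touched only that of KNAT6, for 13.4% and 14.9% in NV and for 18.4% and 16.1% in replicate 2 after 40 d and at T10.

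RNA of the genes inside was scarce. The deposited RNA table listed 163 of the 649 protein-coding genes (25.1%), against 66.3% of all protein-coding genes and 30.7% of the 3033 in shorter domains. How the authors chose the genes to list is not given in the sources used here. RNA values are the authors' normalised read counts, split here into the 2 libraries of each group, called the deeper and the shallower. With the 7 listed genes of other kinds, 170 genes inside could be tested, in 150 domains. The counts below are for these 170 and not for all members. Per kb of gene length, the median level of the 170 was 0.753 in NV, 0.811 after 1 h and 0.784 after 1 d of cold. It was 0.556 after 10 d, 0.499 after 20 d and 0.372 after 40 d, and 0.553 at T10. The median of all listed nuclear genes stayed between 2.39 and 2.54 per kb.

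A gene is said to have risen or fallen where limma with voom gave a Benjamini-Hochberg adjusted p under 0.05 over 18766 genes. After 40 d of cold, 20 of the 170 rose (11.8%) and 61 fell (35.9%), against 16.5% and 18.3% of all genes tested. The median log2 change was −0.88 against 0.00 for all genes. In whole seedlings, fewer cells of a type and less RNA per cell cannot be told apart. Falls were also common in the shorter domains: of 932 tested genes in the shorter domains, 13.3% rose and 40.3% fell, with a median of −0.81. Without the deeper 40 d library, 33 of the 170 fell (9.94% of all genes then fell), and without the deeper NV library 12 rose (10.2% of all).

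At T10 against NV, 18 of the 170 rose (10.6%) and 29 fell (17.1%), against 13.7% and 10.7% of all genes tested. The calls leaned on single libraries. Without the deeper T10 library, 10 rose and 0 fell, against 5.91% and 1.99% of all genes. Without the deeper NV library 8 rose, against 9.69% of all, and without the shallower T10 library 19 fell, against 7.39% of all. At T10 against 40 d, which shares its groups with the other 2 comparisons, 22 rose (12.9%) and 13 fell (7.65%), against 13.3% and 10.1% of all. Without the deeper T10 library 1 fell, against 2.65% of all. Of the 932 tested genes in shorter domains, 22.1% rose and 10.1% fell from 40 d to T10. At T10 against NV, 11.1% of the 932 rose and 20.2% fell. The differences between long and shorter domains were not tested. The shallower T10 library had 2.38 M reads, against 11.8 to 19.9 M in the other libraries of NV, 40 d and T10.

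**Figure D4:**
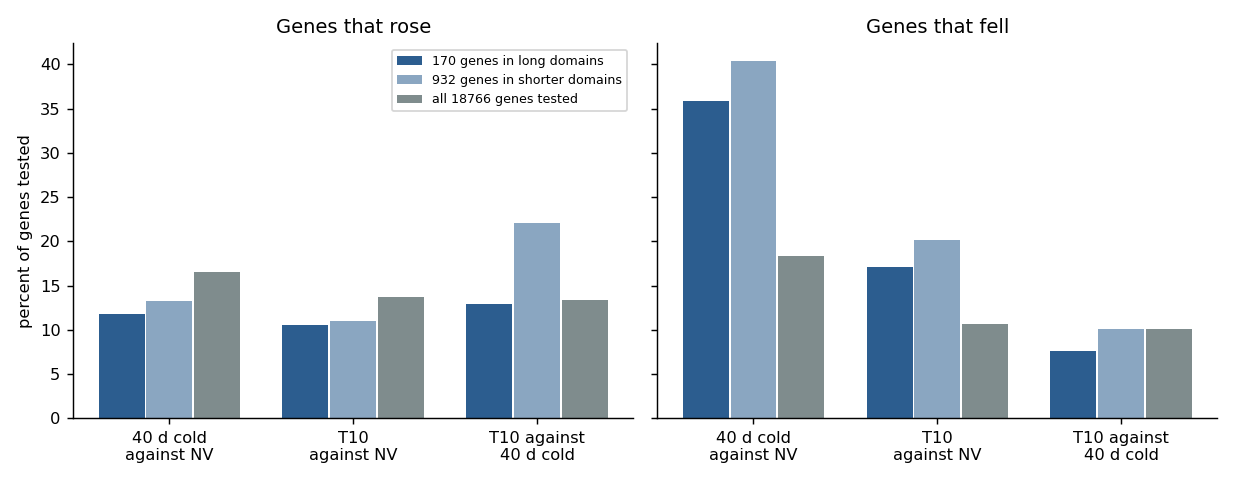
Percent of tested genes that rose (left) or fell (right) by limma in each comparison, for the 170 genes in long domains, the 932 protein-coding genes in shorter domains and all 18766 genes. At 40 d against NV, 35.9% of the genes in long domains fell, near the 40.3% of those in shorter domains and above the 18.3% of all genes.

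Of the 11 listed genes inside that the RNA table held, 4 rose after 40 d of cold and 2 fell, where 16.5% of all genes tested rose and 18.3% fell. None of the 4 floral identity genes inside, and neither TFL1, CUC2 nor YUC1, was listed in it. WOX1 had 0.331 and 0.353 normalised counts in NV and 3.03 and 3.12 after 40 d, the deeper library first. Both 40 d libraries lay well above both of NV. The log2 change was 3.12 (SE 0.52, limma adjusted p 0.000863), and the call held with any library left out. At T10 the gene was back at 0.754 and 0.520, a log2 change of −2.08 from 40 d (SE 0.54, limma adjusted p 0.0144), a call lost without the deeper T10 library.

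KNAT1 rose as well, from 2.25 and 3.91 in NV to 6.21 and 7.16 after 40 d (log2 change 1.19, SE 0.27, limma adjusted p 0.00506). The groups did not overlap, but the call was lost without the deeper NV library. At T10 it stood at 2.33 and 2.77 and had fallen from 40 d by 1.45 on the log2 scale (SE 0.35, limma adjusted p 0.00963), a call that was lost without the deeper T10 library. STM had 0.544 and 0.793 in NV and 1.13 and 1.44 after 40 d and did not pass the test (limma adjusted p 0.18). KNAT6 stood at 3.59 and 3.47 in NV, at 7.08 and 6.70 after 10 d and at 4.15 and 4.41 after 40 d. KNAT2 reached at most 1.203 in the 14 libraries.

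Among the YABBY genes, YAB2 rose from 3.83 and 2.53 in NV to 5.14 and 6.89 after 40 d (log2 change 0.90, SE 0.23, limma adjusted p 0.0114). The call was lost without the shallower NV or the shallower 40 d library. YAB3 had 9.24 and 5.55 in NV, 10.1 and 10.6 after 40 d and 5.25 and 3.64 at T10. It fell from 40 d to T10 by 1.07 (SE 0.34, limma adjusted p 0.0373), and the call was lost in 8 of 14 fits that left out 1 library. FIL (AFO) had 11.2 and 4.82 in NV, 7.55 and 9.23 after 40 d and 8.80 and 7.98 at T10, with overlapping groups and no call.

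AGL24 rose in both comparisons with NV. It had 0.0709 and 0.176 normalised counts in NV, 0.543 and 0.536 after 40 d and 1.16 and 1.39 at T10, so that each group lay above the one before. The log2 change was 2.17 after 40 d (SE 0.79, limma adjusted p 0.0496), a call lost in 12 of 14 fits that left out 1 library. At T10 it was 3.34 (SE 0.79, limma adjusted p 0.0097), lost without the deeper NV or the deeper T10 library. H3K27me3 over its body was 97.2% and 88.6% in NV, 100% and 90.4% after 40 d and 100% and 71.6% at T10.

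The triterpene genes THAA1 and MRN1 fell after 40 d, and so did the listed triterpene genes that were not inside. Of the 7 tested genes of that list, 2 of them inside, 7 fell, against 18.3% of all genes tested. From 40 d to T10, 6 of the 7 rose, against 13.3% of all. THAA1 had 22.4 and 12.8 normalised counts in NV, 5.90 and 6.73 after 1 d and 0.152 and 0.438 after 10 d of cold. After 40 d it had 0.0776 and 0.365, a log2 change of −6.64 (SE 0.85, limma adjusted p 0.000142) that held with any library left out. At T10 it was at 2.45 and 4.51, higher than after 40 d (log2 change 4.02, SE 0.91, limma adjusted p 0.00714) and lower than in NV (−2.62, SE 0.41, limma adjusted p 0.000933). The rise from 40 d was lost without the deeper 40 d library and the fall from NV without the deeper T10 library. MRN1 fell from 70 and 29 reads in NV to 2 and 1 after 40 d, a ratio of 0.0250 (95% exact interval 0.00507 to 0.0752, counting error only; limma adjusted p 0.00166). At T10 it had 10 and 2 reads.

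**Figure D5:**
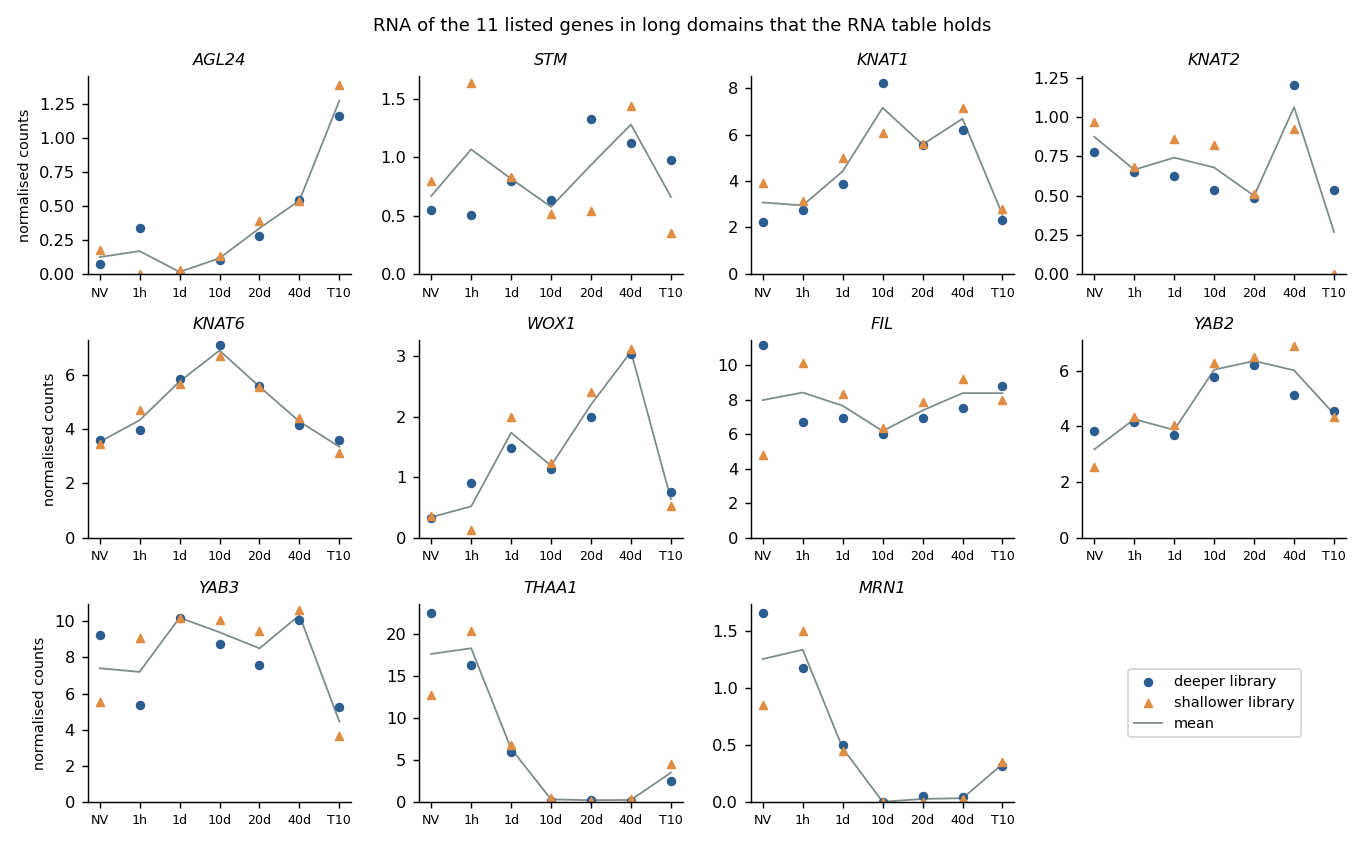
Normalised counts of the 11 listed genes in the deeper (circles) and shallower (triangles) library of each of the 7 RNA groups, with the mean as a line; each panel has its own scale from 0. WOX1 climbs to 3.03 and 3.12 after 40 d and drops at T10, AGL24 is highest at T10, and THAA1 and MRN1 are near 0 from 10 d to 40 d.

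Among the other genes inside, those with the widest rise after 40 d of cold included CYP76C6, a cytochrome P450, from 0.615 and 1.23 in NV to 7.16 and 14.03 (log2 change 3.54, SE 0.58, limma adjusted p 0.00073). AT2G38390 rose from 3.31 and 5.99 to 36.5 and 51.8 (log2 change 3.31, limma adjusted p 1.68e-05). IDD4, of the INDETERMINATE domain zinc finger family, rose from 4.14 and 5.23 to 17.8 and 18.4 (log2 change 1.97, limma adjusted p 4.67e-05). AT1G75900 (2.24) and AT5G10580 (1.91) rose too, and the 5 calls held with any library left out. BGLU33, a beta-glucosidase, had 0.284 and 2.76 in NV and 5.38 and 6.48 after 40 d, and its rise (2.86, limma adjusted p 0.0161) did not hold when the deeper NV library, or the shallower of those at 40 d, was left out. At T10 AT1G75900, AT5G10580, AT2G38390, CYP76C6 and IDD4 had fallen again from 40 d, by 3.59, 2.73, 2.29, 1.81 and 1.10 on the log2 scale (limma). Of these falls only that of AT5G10580 held without the deeper T10 library.

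The widest falls after 40 d ended near 0. AT2G47550 had 403 and 206 reads in NV and none after 40 d, at least 246-fold lower with the floor set at 3 reads over the group (limma adjusted p 0.000207). AT1G14120 fell from 22.1 and 20.9 normalised counts to 0 and 0.146, and AT5G04960 from 5.48 and 6.55 to 0 and 0.0974. MDHAR, a monodehydroascorbate reductase of the antioxidant system, fell from 12.1 and 8.96 to 0.175 and 0.292 (log2 change −5.50, SE 0.69, limma adjusted p 0.000121). VSP1, a vegetative storage protein known from the jasmonate response, fell from 3.69 and 7.08 to 0.175 and 0.0487 (−5.51, limma adjusted p 0.00676), a call lost without the deeper 40 d library. AT1G40104 lies in 1 of the 18 domains that stood apart and differed widely within NV, at 13.3 and 2.88, against 0.0776 and 0.195 after 40 d. Its fall was lost without either 40 d library.

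After the return, several of these rose again. AT1G14120 reached 27.7 and 23.4 at T10, and VSP1 reached 13.6 and 15.3, above its NV level (log2 change 1.49 against NV, limma adjusted p 0.0239, lost without the deeper NV library or either T10 library). CYP71A19, another cytochrome P450, rose from 0.214 and 0.244 after 40 d to 8.42 and 6.94 at T10 (log2 change 5.09, SE 0.77, limma adjusted p 0.000543). AT3G46370 stood at 1.94 and 1.23 in NV, 0.815 and 0.974 after 40 d and 15.0 and 15.8 at T10, a rise of 3.26 from NV (limma adjusted p 1.7e-05) and of 4.09 from 40 d. AT3G28270 behaved alike, with 3.81 and 3.26 in NV, 0.543 and 0.682 after 40 d and 10.3 and 13.2 at T10. AT5G38030 rose by 3.39 from 40 d to T10 and AT5G50130 by 2.66 from NV to T10. AT2G05510 had 1.30 and 8.87 in NV and 20.9 and 95.4 at T10, and AT1G70250 had 3.33 and 6.41 and then 12.7 and 11.6; these calls were lost without the deeper NV and without the deeper T10 library, in that order.

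Genes lower at T10 than in NV included GH3.3, an enzyme that conjugates auxin to amino acids, with 5.98 and 5.85 in NV and 0.880 and 1.73 at T10 (log2 change −2.52, SE 0.48, limma adjusted p 0.00296). EXPA7, an expansin of root hairs, went from 7.09 and 7.96 to 1.95 and 2.08 (−1.91, SE 0.32, limma adjusted p 0.00127). ICL, the isocitrate lyase of the glyoxylate cycle, had 82.7 and 20.5 in NV and 3.08 and 1.73 at T10 (−3.88, SE 1.15, limma adjusted p 0.028). AT2G47550 (−3.03), AT1G40104 (−3.51) and AT3G22240 (−2.13) completed this group. The calls of all 6 were lost without the deeper T10 library, and those of ICL, AT1G40104 and AT3G22240 also without the shallower one. ICL and AT3G22240 lost theirs without the deeper NV library too. BAT1, an acyltransferase of brassinosteroids, fell from 8.37 and 7.38 after 40 d to 4.59 and 4.68 at T10 (−0.77, limma adjusted p 0.0395), a call lost in 10 of 14 fits that left out 1 library.

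In the 18 domains that stood apart, 8 genes were in the RNA table. AT2G01021, beside ribosomal RNA genes at the tip of chromosome 2, had 561 reads in the deeper T10 library and 83443 in the shallower, and no difference between groups passed the test for it. The ribosomal RNA genes AT2G01010 and AT2G01020 had 7 and 0 reads in the former and 341 and 381 in the latter. Without the 18 domains, 20 of 162 tested genes rose and 58 fell at 40 d against NV. Of all genes tested, 16.5% rose and 18.3% fell.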

How the data were processed

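ChIP-seq peaks and RNA values of whole seedlings were used as deposited. Per the file headers, the authors called narrow peaks in each library alone with MACS 2.1.1.20160309 against the input of its time point, with tags extended to 600 bp, 1 tag kept per position and a q-value limit of 0.05. The deposited peak files give the fold enrichment as a ratio over local background, the −log10 of the p-value and of the q-value, and the pileup signal at the summit (not used here). The submitters' processing notes name Bowtie2, TopHat, edgeR and the build TAIR10. The deposited RNA values are a signal, normalised read counts that the authors averaged over the 2 libraries of a group.

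The averages were split into whole reads of 14 libraries, which have 1 solution for at least 99.9% of the values of each library, and tested with limma 3.58.1 (voom, all 14 libraries in 1 fit, R 4.3.3). The splitting, the coverage code and the fit were tested on simulated data. Coverage is the percent of base pairs under peaks. Groups of libraries were compared by exact permutation and sign-flip tests. Gene positions and names come from the RefSeq table of TAIR10.1, and over 41 windows of 3 Mb its frame matched the files to within 100 bp. Intervals cover counting error only.

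The members and lists were chosen with earlier results of these data known. Named were the 10 longest domains, those around the length limit, listed genes inside, and in each comparison the 6 widest rises and falls with a group mean of at least 5. The alternatives were other length limits, overlaps, peak thresholds, weights, gene limits, scalings and left-out libraries. Sequences were not used here.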

Additional observations from a re-analysis of the deposited data

How the results depend on the processing

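Of 256 alternatives, 203 kept the direction and the side of the threshold (counts within 1.5 times, untested values within 1 SD). Another 8, all of H3K27me3 against NV, which has no test, stayed within 1 SD but changed sign. For 40 d minus NV (3.18 points) these were −6.64 with domains chosen on NV replicate 2, and −11.8 and −7.06 with 1 library left out. For T10 minus NV (−0.742) they were 0.0486 at 3000 bp, 2.55 without the 18, 1.65 with domains touching a protein-coding gene, and 9.01 and 14.2 with 1 library left out. Being counted as kept says little here, since 1 SD was wide. It took in 18.2 points beside the 3.18 and −17.8 beside the −0.742. In permutation tests of 2 libraries against 2 the smallest p possible is 0.333. Their side of the threshold was therefore fixed in advance, and only their direction could change. H3K4me3 coverage stayed lower in long than in shorter domains under every alternative run, from −9.80 to −6.65 points. The difference for H3K36me3 turned from 1.66 to −0.579 points without the 18 domains, a choice made after seeing the data. The replicate block cannot change a mean difference in a balanced design (−3.92 points for H3K27me3 from 40 d to T10 with and without it) and is not counted above. Deviations of same-numbered libraries correlated at r 0.719 to 0.973 over domains, but with 2 numbers per group this does not establish pairing.

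The small differences between groups changed sign easily. For H3K4me3, T10 minus NV was −1.46 with a length limit of 6000 bp and −1.65 with domains chosen on NV replicate 2. T10 minus 40 d was 0.546 at 3000 bp, 0.303 with equal weights and 0.890 without the 18. For H3K36me3, 40 d minus NV was −0.00175 without the 18, T10 minus NV −0.305 with domains touching a protein-coding gene, and T10 minus 40 d −0.106 with equal weights and −0.341 with domains touching such a gene. Leaving out 1 library gave −14.2 to 6.32 for H3K27me3 from 40 d to T10. For H3K4me3 it gave −1.80 to 2.47, −1.99 to 2.28 and −2.09 to 1.70, and for H3K36me3 −0.854 to 1.31, −1.78 to 2.39 and −2.01 to 2.17 (40 d minus NV, T10 minus NV, T10 minus 40 d). The cause was not tested.

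Gene counts fell with fewer genes. Given as rose and fell, the 90 genes with whole bodies inside gave 10 and 32 at 40 d, 7 and 15 at T10, and 14 and 7 from 40 d to T10. The 64 genes in domains of at least 6000 bp gave 5 and 18, 4 and 12, and 6 and 7. Of all genes tested, 16.5% and 18.3%, 13.7% and 10.7%, and 13.3% and 10.1% rose and fell. Calls by size alone with a pseudocount of 0.1 gave 47 falls at T10 and 39 rises from 40 d to T10 among the 170. The share of all genes by size alone is not given here. Leaving out 1 library gave 12 to 22 rises and 33 to 71 falls at 40 d, 8 to 22 rises and 0 to 37 falls at T10, and 1 to 18 falls from 40 d to T10. The shares of all genes tested that rose and fell also moved when 1 library was left out. These ranges are therefore not a measure of the genes inside alone. Without the 18 and domains touching a protein-coding gene were alternatives chosen after seeing the data. The planned edgeR fit was not run, since the deposited values are averages and not counts. The shallower T10 RNA library had 2.38 M reads; the part of depth was not tested.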
